A study of Mus musculus with 20 samples.

Results

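A list of 30 named genes of sterol and fatty acid synthesis was followed through 4 groups of 5 arrays. The list holds 18 enzymes of cholesterol synthesis, 4 regulators of that pathway and 8 enzymes that make, lengthen or desaturate fatty acids. A probe set carrying the gene's own symbol alone was present for 29 of the 30, out of 18193 genes measured in all, and Acat2 was not analysed here. Each array held amplified RNA from bone marrow cells, described as VE-cadherin+ endothelial cells, of C57/Bl6 mice aged 8 to 10 weeks. The control mice were non-irradiated, and the other mice had received 5 Gy of total body irradiation and were taken 6 hours, 24 hours or 14 days later. No group carried a transgene or deletion according to the labels. Replicates are labelled as biological, but it is not stated whether an array stands for 1 animal or a pool, so the p-values measure the spread between these samples.

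Cholesterol is built from acetyl-CoA through the mevalonate pathway, which yields the isoprenoid farnesyl diphosphate, and then through squalene and lanosterol. The transcription factor SREBP-2, encoded by Srebf2, drives most genes of this route when membrane sterol is low, and SREBP-1, encoded by Srebf1, acts more on the fatty acid enzymes. Insig1 holds the SREBP precursors in the endoplasmic reticulum when sterols are abundant and is itself an SREBP target. Endothelial cells can make cholesterol themselves as well as take it up from lipoproteins, and intermediates of the mevalonate branch are used to anchor small GTPases at membranes.

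Promoter windows are shown for genes on which the results turn: Hmgcs1 and Sc5d, whose signal was highest at 24 hours, Idi1 and Fads2, whose signal was highest at day 14, and the regulators Insig1 and Srebf2. Each window runs from 250 bases before to 50 bases after an annotated transcription start in RefSeq, build GRCm38.p6, and is written 5′ to 3′ along the gene. Capitals mark the CCAAT box, searched as CCAAT on both strands and so also seen as ATTGG, and the core of the sterol response element, searched as TCACNCCAC on both strands.
Hmgcs1, chr13:119690101-119690400, plus strand: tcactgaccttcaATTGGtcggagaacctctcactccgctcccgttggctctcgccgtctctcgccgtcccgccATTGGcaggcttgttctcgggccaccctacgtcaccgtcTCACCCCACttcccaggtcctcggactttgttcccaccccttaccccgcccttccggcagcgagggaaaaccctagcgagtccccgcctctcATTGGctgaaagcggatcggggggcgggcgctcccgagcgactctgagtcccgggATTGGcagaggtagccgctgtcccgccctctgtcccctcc
Sc5d, chr9:42264251-42264550, minus strand: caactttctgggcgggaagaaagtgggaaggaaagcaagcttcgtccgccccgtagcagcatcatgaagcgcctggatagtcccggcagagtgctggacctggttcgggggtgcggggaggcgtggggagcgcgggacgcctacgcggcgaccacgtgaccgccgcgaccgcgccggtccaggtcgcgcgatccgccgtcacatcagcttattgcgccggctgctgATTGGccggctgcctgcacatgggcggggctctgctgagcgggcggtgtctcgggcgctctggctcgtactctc
Idi1, chr13:8885356-8885655, plus strand: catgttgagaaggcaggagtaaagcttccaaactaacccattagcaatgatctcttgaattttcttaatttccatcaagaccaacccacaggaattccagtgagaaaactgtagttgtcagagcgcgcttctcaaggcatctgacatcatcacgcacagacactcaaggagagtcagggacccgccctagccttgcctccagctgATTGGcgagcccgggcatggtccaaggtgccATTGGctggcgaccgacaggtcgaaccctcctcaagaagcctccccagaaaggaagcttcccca
Fads2, chr19:10101454-10101753, minus strand: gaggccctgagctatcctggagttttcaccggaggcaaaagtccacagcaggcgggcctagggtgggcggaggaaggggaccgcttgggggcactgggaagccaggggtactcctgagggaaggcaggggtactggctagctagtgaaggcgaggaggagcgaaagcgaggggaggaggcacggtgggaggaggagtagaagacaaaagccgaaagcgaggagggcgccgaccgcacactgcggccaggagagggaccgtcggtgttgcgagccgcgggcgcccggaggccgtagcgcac
Insig1, chr5:28071162-28071461, plus strand: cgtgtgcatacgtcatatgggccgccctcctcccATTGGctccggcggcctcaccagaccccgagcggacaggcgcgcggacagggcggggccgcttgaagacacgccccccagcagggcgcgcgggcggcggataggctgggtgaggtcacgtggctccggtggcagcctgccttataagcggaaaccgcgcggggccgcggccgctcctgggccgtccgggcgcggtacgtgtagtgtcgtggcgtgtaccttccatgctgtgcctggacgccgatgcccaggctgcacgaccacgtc
Srebf2, chr15:82147019-82147318, plus strand: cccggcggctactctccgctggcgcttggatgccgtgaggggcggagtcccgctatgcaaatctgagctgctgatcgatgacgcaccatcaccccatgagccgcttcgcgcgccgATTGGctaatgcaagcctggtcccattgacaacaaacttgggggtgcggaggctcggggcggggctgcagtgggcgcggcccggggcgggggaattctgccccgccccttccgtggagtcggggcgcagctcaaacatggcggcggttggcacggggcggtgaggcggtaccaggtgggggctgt
The table of windows held 23 of the 30 genes, among them 15 of the sterol enzymes, 5 of the fatty acid enzymes and 3 of the regulators. Fdps, Fdft1, Sqle, Stard4, Scd1, Scd2 and Fads1 had no entry. A CCAAT box lay in a window of 14 of the 15 sterol enzymes, the exception being Acat2, in 3 of 3 regulators and in 2 of 5 fatty acid enzymes, Acly and Fasn. Among all 27025 genes with a window the share was 41.1%, and among all 32851 windows 37.4%. The GC box CCGCCC lay in windows of 14 of 15 sterol enzymes, 3 of 3 regulators and 2 of 5 fatty acid enzymes, against 38.2% of all genes and 35.7% of all windows. The E-box CACGTG was found for 3 of 15 sterol enzymes, for 1 of 3 regulators and for 0 of 5 fatty acid enzymes, against 8.09% of all genes and 7.15% of windows. The sterol response element core lay in 1.24% of all windows and, among these genes, only in that of Hmgcs1, beginning 137 bases before the start. The 4 patterns were searched separately, so their matches can overlap, and a match describes letters in the window, not binding.

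Some features of the arrays bear on all values. The deposited signals had been scaled to the same trimmed mean on each array, while the median signal fell from 177 ± 10.1 (SD, n = 5) in the non-irradiated group to 149 ± 9.23, 135 ± 5.18 and 94.5 ± 8.38 at 6 hours, 24 hours and day 14. Centring each array on its median instead moved the median log2 change of all genes from -0.02, -0.07 and -0.18 to 0.23, 0.31 and 0.72, and moved the share of rises among called genes from 47%, 53.2% and 42.2% to 68.6%, 81.3% and 94.7%. Under quantile normalization these shares were 51.6%, 60.8% and 61.1%. Replicates at 6 hours were the least alike, with correlations over all genes from 0.893 to 0.902, against 0.935 to 0.962 in the other groups. For Gapdh, the log2 excess of 3′ over 5′ probe set signal, a sign of RNA integrity, averaged 1.33, 1.58, 0.774 and 0.894 in the 4 groups, and was highest, at 2.03, on 6-hour replicate 3. In bulk samples like these, fewer cells of a type and less RNA per cell cannot be told apart.

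**Figure D1:**
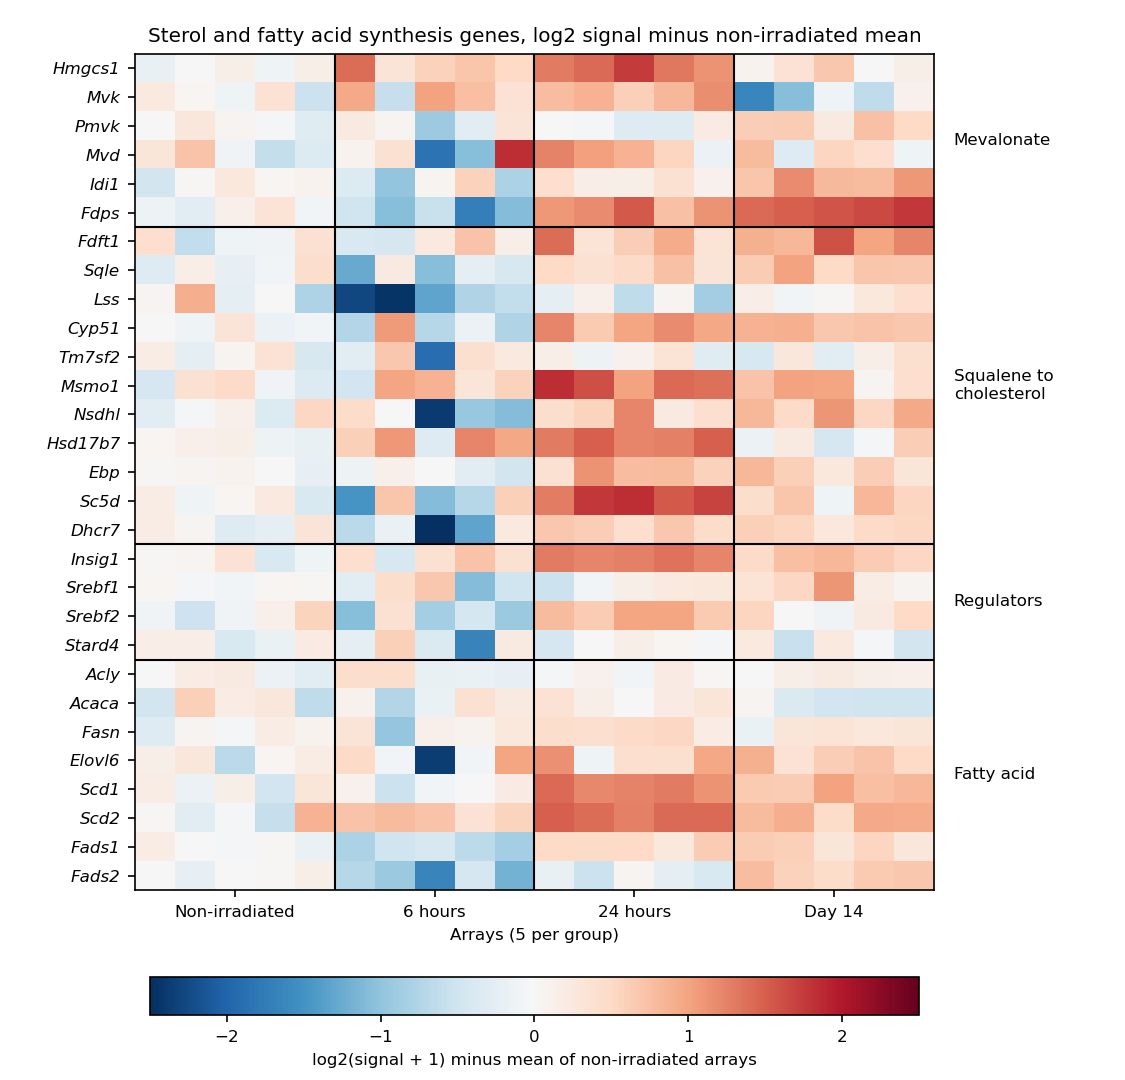
Heatmap of the 29 measured genes (rows, grouped by role) on the 20 arrays (columns, 5 per group), as log2(signal + 1) minus the mean of the gene's non-irradiated arrays. Red is above and blue below that mean, and colours saturate at the ends of the scale. Red predominates at 24 hours, where 25 of 29 fitted changes lay above 0, while the 6-hour arrays differ among themselves.

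Against the non-irradiated group the genes rose most often at 24 hours, where 14 of 29 rose and 0 fell at a limma adjusted p under 0.05, when 15.7% of all genes rose and 13.8% fell. Those 14 were the sterol enzymes Hmgcs1, Mvk, Fdps, Fdft1, Cyp51, Msmo1, Hsd17b7, Ebp and Sc5d, the regulators Insig1 and Srebf2, and the fatty acid desaturases Scd1, Scd2 and Fads1. The median log2 change of the 29 genes was 0.58, beside -0.07 for all genes. For 14 of the 29 all 5 arrays at 24 hours lay above all 5 non-irradiated arrays, which was so for 15.1% of all genes, and for 0 of the 29 they all lay below, beside 12.9%. The rises numbered 15 under quantile normalization, when 19.2% of all genes rose, and 20 with arrays centred on their medians, when 27.2% rose, and 0 of the 29 fell under either. With all probe sets of a gene averaged, 7 rose and 1 fell, when 14.3% of all genes rose and 16.3% fell.

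At 6 hours the changes were fewer and went both ways. Hmgcs1, Hsd17b7 and Scd2 rose and Fdps, Lss, Dhcr7, Fads1 and Fads2 fell, that is 3 and 5 of 29, when 12.9% of all genes rose and 14.5% fell, so both shares lay near the background. The median change was -0.15, beside -0.02 for all genes, and it was 0.10 with arrays centred on their medians. All 6-hour arrays lay above all non-irradiated arrays for 1 gene and below them for 3, beside 7.59% and 8.05% of all genes. Without 6-hour replicate 2 the count of falls was 9. The Hsd17b7 rise lost its call in 7 of 30 alternative settings and the Dhcr7 fall in 8. With all probe sets averaged, Hsd17b7 changed by 0.22 at 6 hours (adjusted p = 0.521).

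At day 14 the count of rises was 12 of 29 and that of falls was 0, when 9.47% of all genes rose and 13% fell. Pmvk, Idi1, Fdps, Fdft1, Sqle, Cyp51, Ebp, Insig1, Scd1, Scd2, Fads1 and Fads2 made up the 12, and 26 genes rose with arrays centred on their medians, when 45.1% of all genes rose. The median change was 0.48, beside -0.18 for all genes. Groups did not overlap for 12 genes on the higher side and 0 on the lower, beside 11.4% and 11.6% of all genes. The 3 comparisons share the non-irradiated arrays, so the times were also compared directly, by counts over the 29 genes and singly for some genes.

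Directly against 6 hours, 17 of the 29 rose by 24 hours and 0 fell, when 13.7% of all genes rose and 10.1% fell. The groups did not overlap for 11 genes on the higher side and 0 on the lower, beside 7.99% and 6.61% of all genes. By day 14, 15 genes stood above 6 hours and 3 below, beside 19.8% and 25% of all genes, with no overlap for 11 and 0, beside 13.1% and 15.1%. Between 24 hours and day 14 calls went both ways, as they did over all genes. Hmgcs1, Mvk, Msmo1, Hsd17b7, Sc5d, Insig1, Srebf2, Scd1 and Scd2 fell, which is 9 of 29 beside 21.7% of all genes, while Pmvk, Idi1 and Fads2 rose, which is 3 of 29 beside 15.2% of all genes. The groups did not overlap for 8 and 3 genes in those directions, beside 20.6% and 15.7%. With arrays centred on their medians 3 genes fell and 10 rose in that comparison, when 9.27% of all genes fell and 27.3% rose, so the falls of Hmgcs1, Mvk and Hsd17b7 kept their call and the other 6 did not. Over all 4 groups 21 of 29 genes passed the F test, beside 55.1% of all genes.

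The makeup of the RNA moved over the same groups. The summed signal of 12 endothelial markers of 12 listed was 14535 to 16014 on the non-irradiated arrays, 40426 to 47019 at 6 hours, 22230 to 23649 at 24 hours and 8065 to 9120 at day 14. Cdh5, the gene of VE-cadherin, averaged 3186, 8954, 4891 and 1293 in the same order. The summed signal of 9 erythroid markers of 12 listed was 44942 to 48352, 5197 to 9417, 2150 to 2875 and 54313 to 67805. Klf1, an erythroid transcription factor, averaged 5693, 430, 134 and 8353. Erythroid signal was thus lowest at 24 hours and highest at day 14.

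Other cell types were represented as well. The sum over 10 of 10 leukocyte markers was 44522 to 51271, 42622 to 50676, 45543 to 51455 and 34830 to 37847, with the pan-leukocyte gene Ptprc at means of 4785, 2722, 3811 and 2726. At 6 hours 5 of these 10, Ptprc among them, fell, 2 rose (Laptm5 by 0.30 and Spi1 by 0.85 on the log2 scale) and 3 were not called. The 8 of 8 granulocyte markers summed to 111585 to 128321, 83722 to 104526, 85299 to 109093 and 77308 to 98542. The 5 of 6 B lineage markers summed to 2076 to 2506, 1312 to 2877, 2065 to 2617 and 1802 to 2133. That sum hides opposite changes at 24 hours, when Ebf1 rose by 0.98 on the log2 scale. Cd79a, Pax5 and Vpreb1 fell then, with log2 changes of -1.54, -3.35 and -2.68, and Cd79b was not called (-0.58). The 8 of 8 stromal markers summed to 69268 to 76814, 84423 to 101967, 72964 to 87492 and 60556 to 70252. At 24 hours Pdgfra, Pdgfrb, Adipoq, Dcn and Lum rose, with log2 changes of 0.95, 0.77, 1.12, 0.75 and 1.42. Col1a1 and Col1a2, the brightest of the list, fell then (-0.38 and -0.25), and Lepr was not called.

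Adipocyte and proliferation markers moved too. The 5 of 6 adipocyte markers summed to 17018 to 18680, 26122 to 32313, 24540 to 27357 and 14134 to 16294. Within that list Pparg, a transcription factor of adipocytes, averaged 442, 1057, 3937 and 684, and Adipoq, which stromal cells of marrow also express, averaged 4243, 4197, 9194 and 6768. Fabp4, a fatty acid binding protein that endothelial cells also express, averaged 13354, 23983, 12662 and 7760. Pparg and Adipoq were thus highest at 24 hours and Fabp4 at 6 hours, with a log2 change of -0.08 for Fabp4 at 24 hours (adjusted p = 0.479). The 7 of 8 proliferation genes summed to 34625 to 38829, 12430 to 16936, 10320 to 11779 and 36134 to 44270, and Mki67 averaged 18052, 8867, 5186 and 14009. At day 14 Mki67 was the 1 gene of these 7 that fell, while Top2a, Birc5, Cdk1 and Bub1 rose (log2 changes of 0.31, 0.89, 0.81 and 0.61). None of these markers was at 0 throughout a group, and Hba-a1, Lep and Cidec were at or near the array background. Rhag was at or under background on 4 of 5 arrays at 6 hours and 5 of 5 at 24 hours, and Rhd on 3 of 5 at each. Vpreb1 was so on 3 of 5 arrays at 6 hours and Pax5 on 3 of 5 at 24 hours. The part of these shifts in the changes of the synthesis genes was not tested.

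**Figure D2:**
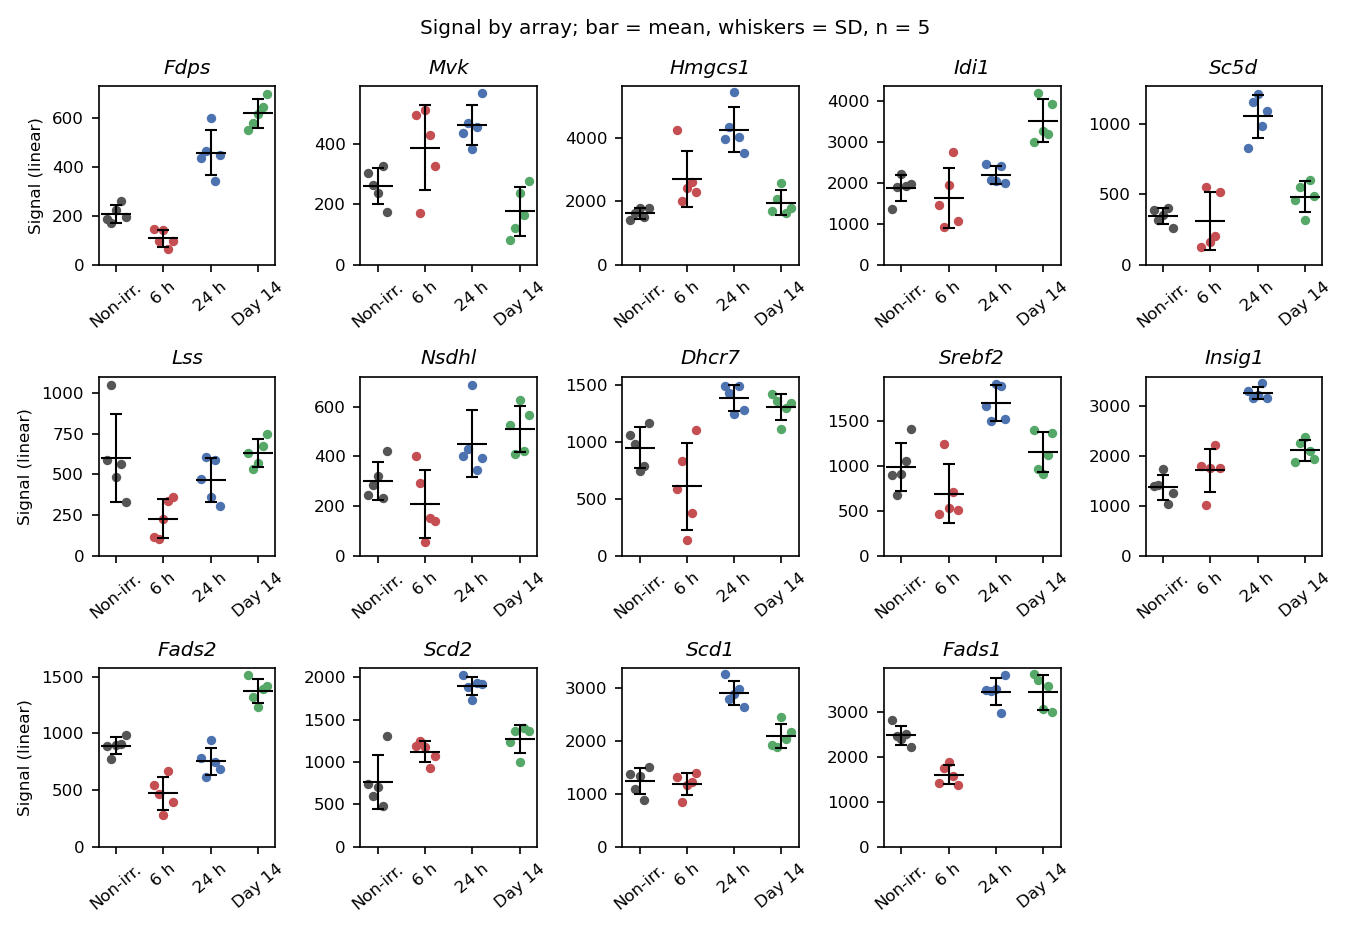
Signal on each array (points, linear scale from 0) for the 14 genes given array by array, with the mean (bar) and SD (whiskers) of 5 arrays in each group. By group mean, Hmgcs1, Sc5d, Insig1, Srebf2, Scd1 and Scd2 stand highest at 24 hours, and Idi1, Fdps and Fads2 at day 14. The Fdps arrays of 24 hours and day 14 overlap.

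In the mevalonate branch 3 of 6 measured enzymes rose at 24 hours and 3 of 6 at day 14, beside 15.7% and 9.47% of all genes, and only Fdps was among both sets. Hmgcs1, which condenses acetyl-CoA and acetoacetyl-CoA to HMG-CoA at the head of the route, gave signals of 1425, 1625, 1789, 1496 and 1791 on the non-irradiated arrays and of 4271, 2023, 2411, 2613 and 2286 at 6 hours. At 24 hours its signals were 3989, 4348, 5459, 4034 and 3548, and at day 14 they were 1711, 2082, 2593, 1626 and 1799. The 6-hour and 24-hour arrays all lay above the non-irradiated ones, and the day 14 arrays overlapped them. The log2 change was 0.70 ± 0.16 (SE, adjusted p = 0.00185) at 6 hours and 1.39 ± 0.16 (adjusted p = 2.33e-07) at 24 hours. From 24 hours to day 14 Hmgcs1 fell by 1.13 on the log2 scale (adjusted p = 3.8e-06).

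Fdps, which makes farnesyl diphosphate, went down first and then up. Its signals were 188, 170, 223, 262 and 196 without irradiation, 145, 97.2, 140, 62.1 and 96.5 at 6 hours, 435, 466, 599, 342 and 449 at 24 hours, and 552, 581, 617, 646 and 700 at day 14. Each irradiated group was separated from the non-irradiated group with no overlap. On the log2 scale it changed by -0.98 ± 0.25 (adjusted p = 0.00325), then 1.13 ± 0.25 (adjusted p = 0.000806), then 1.58 ± 0.25 (adjusted p = 4.74e-05). The direct comparison of 24 hours with 6 hours gave 2.11 ± 0.25 (adjusted p = 3.97e-07), the largest rise of any of the 29 genes between those times. From 24 hours to day 14 Fdps changed by 0.45 ± 0.25 without a call (adjusted p = 0.161), and the arrays of those times overlapped. In a fit of only the non-irradiated and 6-hour groups the fall at 6 hours had an adjusted p of 0.0796. The other Fdps probe set had a mean signal of 8.69, below the lowest array background of 17.5. Averaged with it, Fdps changed by 0.43, 0.64 and 0.55 at the 3 times, with no call (adjusted p = 0.436, 0.204 and 0.269).

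At day 14 Idi1 had its highest group mean and Mvk its lowest. Idi1, which isomerizes isopentenyl diphosphate, gave 1349, 1894, 2214, 1915 and 1966 without irradiation, 1451, 925, 1935, 2735 and 1061 at 6 hours, 2456, 2069, 2045, 2401 and 1992 at 24 hours, and 2991, 4189, 3249, 3187 and 3924 at day 14. Only the day 14 arrays lay wholly above the rest, with a log2 change of 0.92 ± 0.20 against non-irradiated (adjusted p = 0.0021) and of 0.67 ± 0.20 against 24 hours (adjusted p = 0.0107). At 6 hours the Idi1 change was -0.30 ± 0.20 (adjusted p = 0.315). The other Idi1 probe set, of mean signal 895, changed by -0.93 then (adjusted p = 0.00439 over all probe sets). With both averaged the 6-hour change was -0.62 (adjusted p = 0.00726). Mvk, the kinase that phosphorylates mevalonate, gave 304, 264, 237, 327 and 176 without irradiation, 497, 171, 514, 430 and 329 at 6 hours, 439, 471, 386, 458 and 570 at 24 hours, and 81.4, 122, 238, 165 and 277 at day 14. Its 24-hour and day 14 arrays did not overlap, and it fell by 1.51 on the log2 scale between those times (adjusted p = 0.00049). Its rise over the non-irradiated group at 24 hours, 0.85 ± 0.32, sat at the threshold (adjusted p = 0.0497) and lost its call in 15 of 30 alternative settings.

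The remaining enzymes of the branch changed less. Pmvk, the next kinase of the route, ranged from 907 to 1364, 597 to 1408, 896 to 1297 and 1321 to 1861 in the 4 groups, with a log2 change of 0.54 ± 0.19 at day 14 (adjusted p = 0.039). That call was lost in 10 of 30 alternative settings. Mvd, which decarboxylates mevalonate diphosphate, ranged from 74.3 to 184, 30.6 to 408, 102 to 265 and 89.9 to 196 and did not pass the F test.

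From squalene to cholesterol 6 of 11 enzymes rose at 24 hours, 4 of 11 at day 14, and 9 of 11 between 6 hours and 24 hours, beside 15.7%, 9.47% and 13.7% of all genes, with 0 falling in any of these. Sc5d, a sterol desaturase near the end of the route, had the largest rise of all 29 genes at 24 hours. Its signals were 387, 318, 350, 404 and 263 without irradiation, 122, 550, 160, 207 and 518 at 6 hours, 831, 1158, 1219, 987 and 1098 at 24 hours, and 460, 551, 318, 606 and 492 at day 14. The 24-hour arrays lay above every other array, whereas the 6-hour arrays fell into low and high values on both sides of the controls. Sc5d rose by 1.62 ± 0.32 on the log2 scale at 24 hours (adjusted p = 0.000254), and fell by 1.14 from there to day 14 (adjusted p = 0.00562). With its 3 probe sets averaged, the change at 24 hours was 0.89 (adjusted p = 0.121).

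Lss, which closes squalene epoxide into lanosterol, showed the largest fall at 6 hours. It gave 588, 1051, 481, 563 and 328 without irradiation, 115, 101, 224, 334 and 363 at 6 hours, 471, 609, 360, 590 and 305 at 24 hours, and 630, 533, 571, 675 and 749 at day 14. Only the lowest non-irradiated array overlapped the 6-hour arrays, and the log2 change was -1.48 ± 0.33 (adjusted p = 0.00111). By day 14 Lss stood 1.65 ± 0.33 above 6 hours (adjusted p = 0.000219), and its day 14 change from non-irradiated was 0.16 ± 0.33.

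Nsdhl and Dhcr7 both had their lowest group mean at 6 hours. Nsdhl, which helps remove methyl groups from the sterol ring, gave 245, 285, 319, 231 and 421, then 402, 294, 55.2, 151 and 138, then 400, 430, 688, 345 and 394, and at day 14 525, 410, 627, 422 and 568. The 6-hour and non-irradiated arrays overlapped (-0.79 ± 0.36, adjusted p = 0.11), and the day 14 arrays lay above all 6-hour arrays (1.57 ± 0.36, adjusted p = 0.0009). Dhcr7, the reductase of the last step to cholesterol, gave 1057, 983, 743, 789 and 1167, then 588, 835, 137, 372 and 1106, then 1488, 1430, 1247, 1486 and 1283, and at day 14 1416, 1357, 1115, 1294 and 1341. Its 24-hour arrays all lay above the non-irradiated ones, with a log2 change of 0.57 ± 0.33 that did not pass the test (adjusted p = 0.216). Dhcr7 fell by 0.93 ± 0.33 at 6 hours (adjusted p = 0.035), and its change was -0.48 with an adjusted p of 0.106 without 6-hour replicate 3, the array at 137.

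Of the other enzymes between squalene and cholesterol, Msmo1, Cyp51, Hsd17b7 and Ebp each lay wholly above the non-irradiated arrays at 24 hours. Msmo1, a methylsterol oxidase, ranged from 116 to 216 without irradiation and from 312 to 562 at 24 hours, a log2 change of 1.45 ± 0.30 (adjusted p = 0.000428). Hsd17b7, which acts as a sterol ketoreductase, ranged from 407 to 511 and from 1085 to 1312, a change of 1.35 ± 0.23 (adjusted p = 5.2e-05), and was back at 349 to 711 by day 14. Cyp51, the lanosterol demethylase, ranged from 462 to 643 and from 803 to 1193, a change of 1.00 ± 0.25 (adjusted p = 0.00286), and stayed at 815 to 946 at day 14. Ebp, a sterol isomerase, ranged from 391 to 478 and from 585 to 975, a change of 0.72 ± 0.18 (adjusted p = 0.00299), and at day 14 from 542 to 803. With all probe sets averaged, the 24-hour change was 0.65 for Msmo1 (adjusted p = 0.259) and 0.55 for Cyp51 (adjusted p = 0.0703). The averaged day 14 change of Cyp51 was 0.08 (adjusted p = 0.815), beside 0.76 for the probe set used.

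The enzymes around squalene itself had their highest group means at day 14. Fdft1, squalene synthase, ranged from 375 to 770 without irradiation, 724 to 1522 at 24 hours and 1021 to 1737 at day 14, with changes of 0.72 ± 0.24 (adjusted p = 0.026) and 1.10 ± 0.24 (adjusted p = 0.00208). Sqle, squalene epoxidase, ranged from 297 to 499 without irradiation, 153 to 435 at 6 hours, 465 to 619 at 24 hours and 522 to 739 at day 14, and its day 14 change of 0.70 ± 0.24 passed narrowly (adjusted p = 0.0405). From 24 hours to day 14 Fdft1 changed by 0.38 ± 0.24 (adjusted p = 0.248) and Sqle by 0.21 ± 0.24 (adjusted p = 0.542), both without a call. Leaving out single arrays ended the Sqle call at day 14 in 9 of 20 cases, the Ebp call in 8 and the Cyp51 call in 6. Tm7sf2, a sterol reductase, ranged from 117 to 198, 40.3 to 248, 125 to 196 and 116 to 205 and did not pass the F test.

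Among the regulators, Insig1 and Srebf2 rose at 24 hours, and Srebf1 and Stard4 did not pass the F test. Insig1 gave 1388, 1420, 1736, 1043 and 1262 without irradiation, 1799, 1020, 1753, 2219 and 1760 at 6 hours, 3314, 3169, 3219, 3463 and 3155 at 24 hours, and 1871, 2262, 2388, 2100 and 1947 at day 14. The 24-hour arrays lay above all others and the day 14 arrays above all non-irradiated ones. Insig1 rose by 1.27 ± 0.16 on the log2 scale at 24 hours (adjusted p = 4.51e-07) and by 0.64 ± 0.16 at day 14 (adjusted p = 0.0046), and the fall of 0.63 between them passed the test (adjusted p = 0.00213). Under quantile normalization the day 14 change was 0.47 (adjusted p = 0.0513).

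Srebf2, the gene of SREBP-2, gave 898, 674, 908, 1053 and 1405 without irradiation, 458, 1245, 533, 711 and 502 at 6 hours, 1671, 1500, 1912, 1893 and 1520 at 24 hours, and 1400, 969, 907, 1117 and 1364 at day 14. Its 24-hour arrays lay above all others, while 6-hour replicate 2 stood apart from the other 6-hour arrays. For Srebf2 the log2 change was 0.82 ± 0.22 at 24 hours (adjusted p = 0.00648) and -0.58 ± 0.22 at 6 hours (adjusted p = 0.0563, and 0.00169 without 6-hour replicate 2). A second Srebf2 probe set, of mean signal 710, changed by 0.22 at 6 hours (adjusted p = 0.646 over all probe sets). At 24 hours it changed by 0.71 (adjusted p = 0.0667 over all probe sets). Srebf1, the gene of SREBP-1, ranged from 501 to 543, 248 to 839, 365 to 630 and 555 to 1127. Its day 14 arrays did not overlap the non-irradiated ones, but the change of 0.45 ± 0.26 did not pass the test (adjusted p = 0.234). Stard4, which carries cholesterol between membranes, ranged from 399 to 598, 162 to 779, 387 to 571 and 352 to 613.

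Of the 8 fatty acid enzymes 4 passed the F test, near the share of 55.1% of all genes. By the probe sets used, these 4 were the desaturases, and the 4 enzymes that build and lengthen the chain did not pass. Scd1, a stearoyl-CoA desaturase that makes monounsaturated fatty acids, gave 1372, 1090, 1338, 872 and 1496 without irradiation, 1306, 835, 1156, 1212 and 1392 at 6 hours, 3252, 2784, 2876, 2969 and 2628 at 24 hours, and 1913, 1879, 2444, 2037 and 2162 at day 14. The 4 groups formed 3 separate levels, with the non-irradiated and 6-hour arrays overlapping. Scd1 rose by 1.26 ± 0.15 on the log2 scale at 24 hours (adjusted p = 2.35e-07) and by 0.78 ± 0.15 at day 14 (adjusted p = 0.000497). The difference of -0.48 between those times (adjusted p = 0.0124) was 0.04 with arrays centred on their medians.

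Scd2, a second stearoyl-CoA desaturase, gave 736, 597, 701, 482 and 1309 without irradiation, 1185, 1250, 1179, 927 and 1067 at 6 hours, 2032, 1890, 1733, 1935 and 1920 at 24 hours, and 1241, 1362, 995, 1398 and 1368 at day 14. Non-irradiated replicate 5 alone overlapped the 6-hour and day 14 arrays, and the 24-hour arrays lay above all others. The log2 change was 0.63 ± 0.19 (adjusted p = 0.0114), 1.40 ± 0.19 (adjusted p = 1.33e-06) and 0.81 ± 0.19 (adjusted p = 0.00266) at the 3 times. The 6-hour call was lost in a fit of only those 2 groups, with an adjusted p of 0.0882.

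The desaturases of polyunsaturated fatty acids, Fads1 and Fads2, fell at 6 hours. Fads1 gave 2821, 2466, 2408, 2524 and 2217 without irradiation, 1431, 1748, 1887, 1567 and 1382 at 6 hours, 3504, 3470, 3517, 2982 and 3830 at 24 hours, and 3870, 3725, 3073, 3584 and 3015 at day 14. Its groups at 24 hours and day 14 overlapped each other and lay above all other arrays, and those at 6 hours lay below all others. Its log2 change was -0.64 ± 0.11 (adjusted p = 5.99e-05), 0.48 ± 0.11 (adjusted p = 0.00143) and 0.47 ± 0.11 (adjusted p = 0.00314). Under quantile normalization the day 14 change was 0.25 (adjusted p = 0.101).

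Fads2 gave 886, 773, 895, 906 and 988 without irradiation, 541, 465, 282, 665 and 392 at 6 hours, 778, 614, 936, 747 and 683 at 24 hours, and 1514, 1317, 1227, 1389 and 1419 at day 14. The 6-hour arrays lay below and the day 14 arrays above all non-irradiated ones, and the 24-hour arrays overlapped both the controls and the 6-hour arrays. The log2 change was -0.98 ± 0.18 (adjusted p = 0.00019), -0.25 ± 0.18 (adjusted p = 0.338) and 0.63 ± 0.18 (adjusted p = 0.0162). From 6 hours to day 14 Fads2 rose by 1.60 ± 0.18 (adjusted p = 8.39e-08).

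By the probe sets used, none of Acly, Acaca, Fasn and Elovl6 was called in any comparison. Acly, which supplies cytosolic acetyl-CoA to both pathways, ranged from 2721 to 3825, 2854 to 4465, 3109 to 3747 and 3291 to 3826 in the 4 groups. Acaca, acetyl-CoA carboxylase, ranged from 290 to 682, 271 to 583, 447 to 578 and 316 to 474. Fasn, fatty acid synthase, ranged from 476 to 674, 303 to 742, 674 to 844 and 531 to 755, with a change of 0.41 ± 0.20 at 24 hours (adjusted p = 0.142). Elovl6, an elongase of palmitate, ranged from 104 to 202, 31.3 to 331, 153 to 369 and 212 to 306, and its day 14 arrays did not overlap the non-irradiated ones (0.61 ± 0.43, adjusted p = 0.315). A missed threshold does not show that these 4 genes were unaltered.

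**Figure D3:**
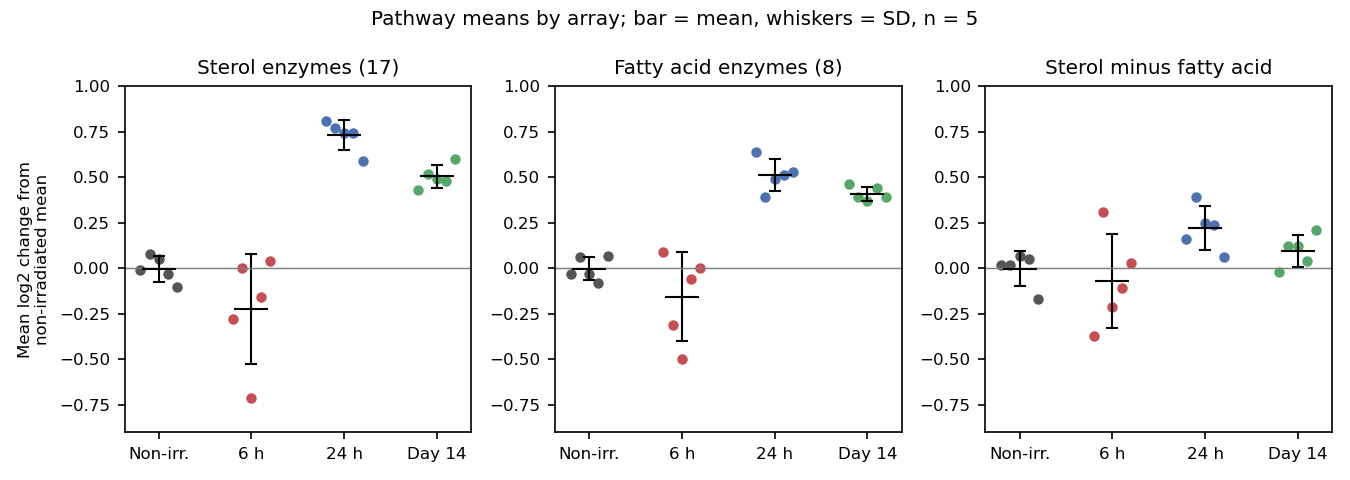
Mean log2 change of the 17 sterol enzymes, of the 8 fatty acid enzymes, and the difference of these means, on each array (points), relative to the non-irradiated group mean; bars are group means and whiskers the SD of 5 arrays. Both pathway means lie above 0 on all 24-hour and day 14 arrays, and the difference overlaps the non-irradiated range in each irradiated group.

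Set side by side, both pathway means lay above the non-irradiated range on every array at 24 hours and day 14. The mean log2 change of the 17 sterol enzymes on the 5 arrays of 24 hours was 0.81, 0.77, 0.74, 0.74 and 0.59, and that of the 8 fatty acid enzymes 0.64, 0.39, 0.49, 0.51 and 0.53. At day 14 the sterol means were 0.43, 0.52, 0.49, 0.48 and 0.60 and the fatty acid means 0.46, 0.39, 0.37, 0.44 and 0.39. The 6-hour sterol means ranged from -0.71, on replicate 3, to 0.04, and the fatty acid means from -0.50, on the same replicate, to 0.09.

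The sterol mean minus the fatty acid mean was -0.07 ± 0.26 (SD, n = 5) at 6 hours, 0.22 ± 0.12 at 24 hours and 0.09 ± 0.088 at day 14. On single arrays it ranged from -0.37 to 0.31, from 0.06 to 0.39 and from -0.02 to 0.21, beside -0.17 to 0.07 on the non-irradiated arrays. With all probe sets averaged the differences were 0.17, 0.40 and 0.32, so the sign at 6 hours turned, as it did with the brightest probe set by linear mean (0.13), and under quantile normalization they were 0.34 at 24 hours and 0.31 at day 14. The lowest 24-hour array therefore lay within the non-irradiated range. As the genes were chosen with results of these data known, this difference is a description without a test. By counts, 9 of 17 sterol enzymes and 3 of 8 fatty acid enzymes rose at 24 hours, and 7 of 17 and 4 of 8 rose at day 14, with 0 falls in each, beside 15.7% and 9.47% of all genes.

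Several genes are read by more than 1 probe set, and these did not always move together. Of the 29 genes 20 had several, and the brightest was used. For Hmgcs1 the 3 other bright probe sets gave 1.84 to 2.01 at 24 hours, and for Hsd17b7 a pair of others gave 1.89 and 2.17, so these rises were seen by each of the brighter probe sets. At 6 hours that pair for Hsd17b7 gave -0.02 and 0.17, beside 0.71 for the one used. For Acaca the probe set used changed by -0.03 at 6 hours, and the other, with means of 608 without irradiation and 229 at 6 hours, by -1.60 (adjusted p = 0.000144 over all probe sets). A second Acly probe set, of mean signal 1568, changed by 0.66 at 6 hours (adjusted p = 0.008 over all probe sets), beside 0.07 for the one used, and another, of mean signal 1135, by -0.23. The second Fads1 probe set, dimmer at a mean of 455 over all arrays, changed by -2.81, -2.33 and -1.87 at the 3 times, against the rise of the brighter one at 24 hours and day 14. The other Fads2 probe sets changed by 0.24 and -0.36 at 6 hours, by 0.35 and -1.13 at 24 hours and by 0.98 and -0.21 at day 14. For Fdft1 a probe set of mean signal 607 changed by 0.61 at 24 hours and 2 dim ones by -1.37 and -1.73. With all probe sets averaged, the 24-hour change was -0.44 for Fdft1 (adjusted p = 0.23) and -0.93 for Fads1 (adjusted p = 0.0488). A dim Elovl6 probe set, of mean signal 90.4, changed by -1.67 at 24 hours and -2.67 at day 14. Which probe set gives the level of these genes was not resolved here.

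**Figure D4:**
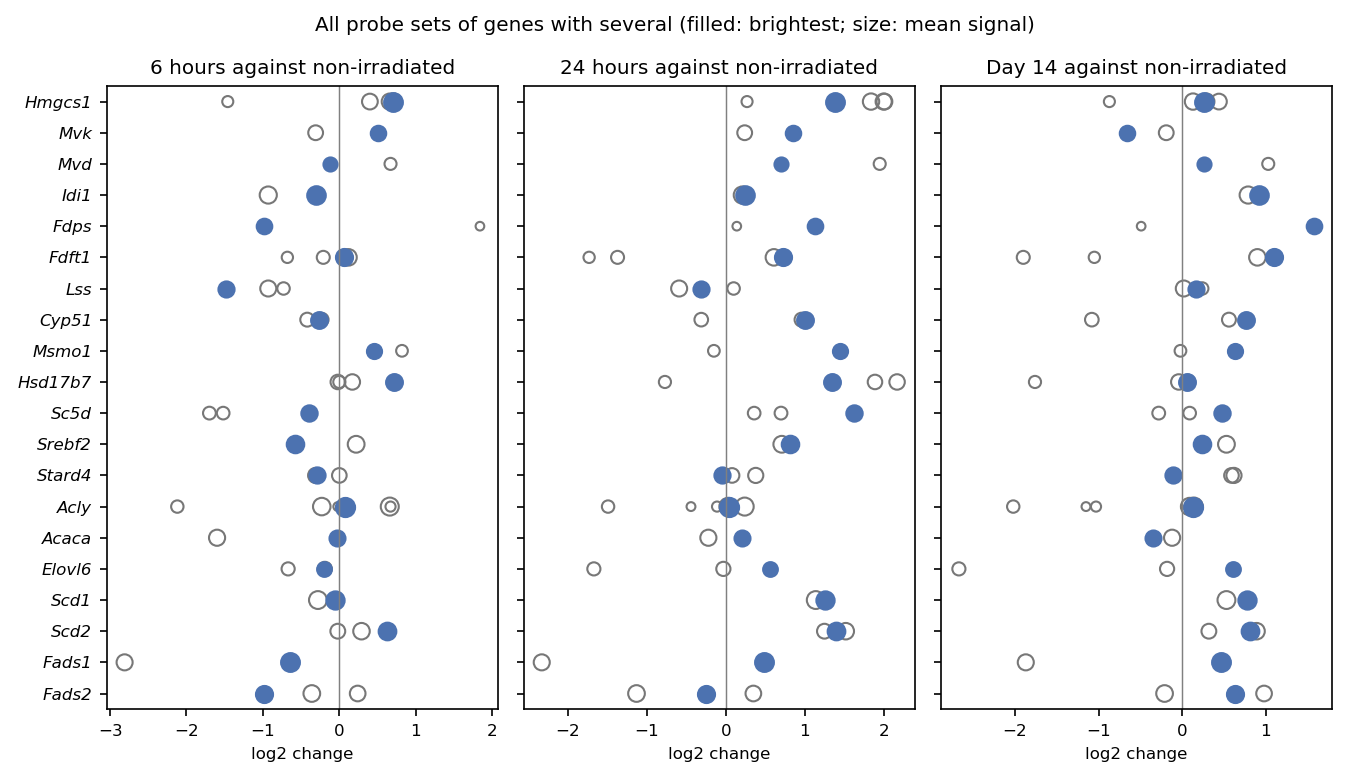
Log2 change against the non-irradiated group at 6 hours, 24 hours and day 14 (panels) for every probe set of the 20 genes with several; filled points are the brightest probe set, which represents the gene, and point size grows with mean signal. The points of Hmgcs1 and Hsd17b7 other than the dim ones lie together at 24 hours, while those of Acaca at 6 hours and of Fads1 lie apart.

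Genes around both pathways are read against the shares of all genes that rose (12.9%, 15.7% and 9.47% at 6 hours, 24 hours and day 14) or fell (14.5%, 13.8% and 13%). In the machinery that processes and retains SREBP, 1 of 6 measured genes rose and 1 fell at 24 hours, near those shares. Rnf139, a ubiquitin ligase of the endoplasmic reticulum, fell by 0.59 ± 0.11 at 6 hours (adjusted p = 0.000248), and Insig2, the paralog of Insig1, rose by 0.37 ± 0.13 at 24 hours (adjusted p = 0.0361). Among 6 genes of other sterol and isoprenoid branches 1 rose at 24 hours, namely Nus1, a subunit of the enzyme that makes dolichol (0.61 ± 0.16, adjusted p = 0.00354). Its probe sets differed at 6 hours, when the one used changed by 0.34 and another, of mean signal 1627, by 0.23. Those of mean signal 1650 and 1498 changed by 1.29 and 1.31 at 6 hours and by 0.51 and 0.68 at 24 hours. Dhdds, the partner of Nus1, fell by 0.55 ± 0.20 at 6 hours (adjusted p = 0.0406).

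Of 5 uptake and trafficking genes 1 rose at 6 hours, 3 at 24 hours and 1 at day 14, with 0 falls, beside 12.9%, 15.7% and 9.47% of all genes. Vldlr, a lipoprotein receptor, rose by 1.15 ± 0.32 at 6 hours (adjusted p = 0.00826), and Lipa, the lysosomal acid lipase, by 0.93 ± 0.19 at 24 hours (adjusted p = 0.000484). Of 7 genes of LXR signalling and sterol export 4 rose at 6 hours and 4 at 24 hours with 0 falls, beside 12.9% and 15.7% of all genes rising, and at day 14 1 rose and 2 fell. Apoe, the apolipoprotein that takes up exported cholesterol, averaged 823 ± 199 without irradiation and 3533 ± 282 at 24 hours, a log2 change of 2.14 ± 0.16 (adjusted p = 1.21e-10), larger than that of any of the 29 synthesis genes at that time. Cyp27a1, a sterol hydroxylase, fell by 1.96 ± 0.61 at day 14 (adjusted p = 0.0215), where 2 of 5 arrays were at or under background.

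Of 12 further lipogenic genes 2, 5 and 4 rose and 1, 2 and 1 fell at 6 hours, 24 hours and day 14, beside 12.9%, 15.7% and 9.47% of all genes rising and 14.5%, 13.8% and 13% falling. Me1, malic enzyme, which supplies NADPH for fatty acid synthesis, rose by 1.47 ± 0.27 at 24 hours (adjusted p = 0.000129). Acss2, which activates acetate to acetyl-CoA, fell by 1.38 ± 0.31 at 6 hours (adjusted p = 0.00108). Of 8 genes of fatty acid oxidation 1, 2 and 2 rose and 1, 0 and 0 fell, with both counts at 6 hours near the shares of all genes. Ppara, a nuclear receptor that drives oxidation genes, rose by 1.93 ± 0.55 at 24 hours (adjusted p = 0.0085) from a mean of 62.7, with 1 non-irradiated array at or under background. Ppard, a related receptor, rose by 1.32 ± 0.29 at 6 hours (adjusted p = 0.00102).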

How the data were processed

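RNA of 20 samples was amplified with a NuGEN Ovation kit and hybridized to Affymetrix arrays, per the labels' protocols. The values deposited by the authors are intensities on a linear scale, 1 per probe set, with a trimmed mean (2% off either end) of 500 on every array. Transcriptome Analysis Console and Affymetrix Expression Console are named in the submitters' processing notes, while the summarization method and background correction are not given in the sources used here. With 5 arrays per group, their number limits the precision.

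Of 45101 probe sets 34945 carried 1 gene symbol, 932 several, and 9160 were unnamed here. Intensities were log2 transformed after adding 1, and each gene was represented by its single-symbol probe set with the highest mean log2 intensity, giving 18193 genes, dim ones included. The 4 groups were fitted in 1 model with limma 3.58.1 in R 4.3.3 (lmFit, then eBayes with an intensity trend). The same fit was also run on simulated data. A gene was called at an adjusted p under 0.05 (two-sided, Benjamini-Hochberg across the 18193 genes). Changes are given with limma's standard error and mean signals with the SD. The background of an array was the 95th percentile of 27 bacterial control probe sets, 17.5 to 51.5. Figures were drawn with matplotlib 3.10.9.

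The 30 genes, the pathway and marker lists and the tests were chosen with earlier results of these data known. Given array by array were the 4 genes of each role with the widest range of group means among those past the F test. Named from each pathway list were the 2 called genes with the largest change from the non-irradiated group. Alternatives were quantile normalization, median centring, averaging all probe sets of a gene, array weights, leaving out dim genes, a pseudocount of 16, eBayes without the trend, fitting 2 groups at a time, the replicate number as a block and leaving out each array. Taking the brightest probe set by linear mean was added after seeing the data. Acat2 and pathway or marker genes without a probe set of their own symbol were not analysed here.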

Additional observations from a re-analysis of the deposited data

Results flagged for a closer look

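Single arrays stood apart from the other 4 of their group in 8 of 116 sets of 5 signals, by Dixon's criterion at the 95% level, which chance meets in about 1 in 20. Among non-irradiated arrays these were Cyp51 on replicate 3 (highest, 643), Ebp on replicate 5 (lowest, 391) and Elovl6 on replicate 3 (lowest, 104). Fasn was lowest at 303 on 6-hour replicate 2, at 674 on 24-hour replicate 5 and at 531 on day 14 replicate 1. Stard4 was lowest at 387 on 24-hour replicate 1, and Acaca was highest at 474 on day 14 replicate 1.

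In 3 genes the change from the non-irradiated group was called in opposite directions at different times, and the direct comparison of those times passed the test as well. For Fdps it gave a log2 difference of 2.11 between 24 hours and 6 hours and of 2.57 between day 14 and 6 hours. For Fads1 the differences were 1.12 and 1.11. For Fads2 it was 1.60 between day 14 and 6 hours. These values are of the probe set used for each gene, and the other probe sets of the 3 genes moved differently.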

How the results depend on the processing

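Of 5220 recomputed changes of single genes 4815 kept direction and side of the threshold, 163 lost their call and 99 gained one. The sign changed in 130 with no call in the main or the alternative fit, and in 13 with a call in either. Called in all 30 alternatives at 24 hours were 7 of the 14 rises (Hmgcs1, Hsd17b7, Ebp, Insig1, Srebf2, Scd1, Scd2), and at day 14 4 of 12 (Idi1, Scd1, Scd2, Fads2). Counts below are of the 29 genes against non-irradiated unless a second time is named, and the cause of these shifts was not tested. Quantile normalization gave 1 fall from 6 hours to day 14 and sterol minus fatty acid means of 0.34 at 24 hours and 0.31 at day 14. Centring arrays on their medians gave 26 rises at day 14, 10 rises and 3 falls from 24 hours to day 14, and 23 rises and 0 falls from 6 hours to day 14. Among changes called in either fit, it turned the sign for Hmgcs1 (6 hours to day 14, 0.21) and Stard4 (day 14, 0.78). It also did so for Scd1 (24 hours to day 14, 0.04) and Fads1 (24 hours to day 14, 0.51). Another 24 changes turned sign without a call in either fit. Averaging all probe sets of a gene gave 0 rises at 6 hours, 7 rises and 1 fall at 24 hours, 1 fall at day 14 and 1 from 6 hours to day 14, with sterol minus fatty acid means of 0.17, 0.40 and 0.32. Among changes called in either fit, averaging turned Fdps at 6 hours (0.43) and Fads1 at 24 hours (-0.93) and day 14 (-0.70). Fdft1 turned at 24 hours (-0.44), day 14 (-0.24) and 6 hours to day 14 (-0.06). Acly turned at day 14 (-0.64) and Acaca from 6 hours to day 14 (0.58). A further 20 changes turned sign without a call in either fit. Fitting only the 2 groups gave 1 rise and 3 falls at 6 hours, 5 rises from 24 hours to day 14 and 1 fall from 6 hours to day 14. The brightest probe set by linear mean gave a sterol minus fatty acid mean of 0.13 at 6 hours and 1.47 for Acaca from 6 hours to day 14.

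Leaving out single arrays gave 2 to 3 rises and 4 to 9 falls at 6 hours (9 without 6-hour replicate 2), 12 to 15 rises and 0 to 0 falls at 24 hours, and 8 to 13 rises and 0 to 0 falls at day 14. From 6 to 24 hours it gave 16 to 19 rises and 0 to 0 falls, from 24 hours to day 14 3 to 3 rises and 7 to 10 falls, and from 6 hours to day 14 14 to 16 rises and 1 to 3 falls (1 without day 14 replicate 1). The F test passed 21 to 21 genes, and sterol minus fatty acid means ran from -0.16 to 0.01, 0.18 to 0.26 and 0.05 to 0.12. Replicate numbers did not pair the arrays: over 30 pairs with the same number, correlations of deviations ran from -0.0665 to 0.0493, and with the number as a block 13 genes rose at 24 hours and 12 at day 14, with 3 rises and 5 falls at 6 hours. Mvd and Elovl6 were each at or under background on 1 array at 6 hours, which limits their precision.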
